A study of Mus musculus with 27 samples.

Results

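The mitochondrial fusion and cristae genes described here are Mfn1, Mfn2, Opa1, Oma1, Yme1l1, Immt, Chchd3, Chchd6, Phb and Phb2. They were taken by symbol, and the 10 symbols matched 10 of 55401 genes in a table of read counts from 27 RNA-seq libraries of mouse 4T1 cells, a line derived from a mammary carcinoma. In 21 libraries the cells were either unedited (parental) or CRISPR-Cas9 knockout clones for Drp1 (gene symbol Dnm1l), Fis1 or Mff, with 3 libraries for parental cells and 3 for each of 6 clones. The Drp1 clones carry the codes gs1B8 and gs2_B4, the Fis1 clones gs1_B11 and gs2_F6, and the Mff clones gs1_B4 and gs1_C8. A further 6 libraries came from unedited 4T1 cells given leflunomide, an inhibitor of pyrimidine synthesis, or its vehicle DMSO for 3 days, with 3 libraries each. Each clone is 1 cell line, so a genotype is represented by 2 lines, and the parental comparison is with a cell population rather than an unedited clone. Which code corresponds to the clone 1 or clone 2 of the labels was not stated, and nothing says that the 3 libraries of a group came from separate cultures, so the spread behind every p-value is that among these libraries and may be technical.

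Mitochondria fuse in steps that use different dynamin-family GTPases. The mitofusins Mfn1 and Mfn2 tether and fuse the outer membranes, and Opa1 fuses the inner membranes and keeps the necks of the cristae narrow. Opa1 protein is cut by the inner membrane proteases Oma1 and Yme1l1, the first of which is activated by stress. Immt (also called Mic60), Chchd3 (Mic19) and Chchd6 (Mic25) are subunits of MICOS, the complex that holds cristae junctions, and Phb and Phb2 form the prohibitin ring scaffold of the inner membrane. Fission runs against fusion and needs Drp1, which is recruited to the outer membrane by receptors such as Mff, while Fis1 is an outer membrane adaptor. The labels describe the knockout and drug experiments as comparisons with parental cells and with vehicle, and the question here was whether transcripts of the fusion and cristae machinery moved when a fission gene was edited.

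The promoters of 5 of these genes are shown because their transcripts passed the test given below as lower together: Mfn2, Opa1 and Chchd6 in both Drp1 clones, and Phb and Phb2 in both Mff clones. The calls of Mfn2 in gs1B8 and of Phb in gs1_C8 were fragile, as given below. Each window runs from 250 bases before to 50 bases after the annotated start, 5′ to 3′ on the gene's own strand, from RefSeq on build GRCm38.p6. RefSeq gives Mfn2 3 starts with overlapping windows, of which the second is shown. The windows are chr4:147904649-147904948 (minus strand) for Mfn2, chr16:29579084-29579383 (plus strand) for Opa1, chr6:89595603-89595902 (minus strand) for Chchd6, chr11:95666707-95667006 (plus strand) for Phb and chr6:124712039-124712338 (plus strand) for Phb2. Capitals mark exact matches, on either strand, to the 7 short motifs named below.
Mfn2 promoter: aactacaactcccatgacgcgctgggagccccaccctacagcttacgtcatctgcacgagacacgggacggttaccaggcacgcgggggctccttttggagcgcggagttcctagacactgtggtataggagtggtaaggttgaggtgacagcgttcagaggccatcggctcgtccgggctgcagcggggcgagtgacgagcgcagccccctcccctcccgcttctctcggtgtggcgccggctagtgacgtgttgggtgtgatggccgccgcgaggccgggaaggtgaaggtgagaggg
Opa1 promoter: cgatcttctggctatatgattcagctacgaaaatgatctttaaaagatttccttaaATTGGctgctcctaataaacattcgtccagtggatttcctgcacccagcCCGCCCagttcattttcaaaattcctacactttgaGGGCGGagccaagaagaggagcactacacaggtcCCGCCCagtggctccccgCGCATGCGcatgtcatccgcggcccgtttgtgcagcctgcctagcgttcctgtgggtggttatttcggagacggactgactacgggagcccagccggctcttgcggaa
Chchd6 promoter: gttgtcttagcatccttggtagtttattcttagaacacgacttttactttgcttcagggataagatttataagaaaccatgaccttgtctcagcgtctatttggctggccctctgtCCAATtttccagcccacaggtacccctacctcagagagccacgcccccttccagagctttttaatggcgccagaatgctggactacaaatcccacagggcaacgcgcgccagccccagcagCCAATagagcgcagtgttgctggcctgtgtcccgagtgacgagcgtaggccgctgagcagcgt
Phb promoter: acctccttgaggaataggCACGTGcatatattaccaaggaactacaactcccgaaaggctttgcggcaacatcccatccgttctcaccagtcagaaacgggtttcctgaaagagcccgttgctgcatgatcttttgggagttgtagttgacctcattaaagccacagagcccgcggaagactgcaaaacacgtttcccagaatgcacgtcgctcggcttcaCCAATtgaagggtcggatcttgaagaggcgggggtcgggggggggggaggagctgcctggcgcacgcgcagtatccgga
Phb2 promoter: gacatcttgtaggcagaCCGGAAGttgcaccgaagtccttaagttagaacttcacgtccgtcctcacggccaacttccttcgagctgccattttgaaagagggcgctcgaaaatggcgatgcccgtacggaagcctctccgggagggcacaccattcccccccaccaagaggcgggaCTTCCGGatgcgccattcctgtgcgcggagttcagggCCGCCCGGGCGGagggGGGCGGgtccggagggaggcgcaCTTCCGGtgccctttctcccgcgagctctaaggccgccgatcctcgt

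Neither set of genes shared one set of motifs, and the printed Mfn2 window matched none of the 7. The NRF1 core CGCATGCG, bound by a regulator of nuclear genes for mitochondria, was found in the Opa1 window and in no other of the 10 genes, against 1.87% of all 32851 promoter windows. The E-box CACGTG, read by MYC and MAX among others, was found for Phb and Chchd3 (7.15% of all windows), and the ETS motif CCGGAAG for Chchd3, Immt, Mfn1, Phb2 and Yme1l1 (8.86%). The commoner GC box GGGCGG matched 6 of the 10 genes (35.7%), Mfn2 only in another of its windows, and CCAAT matched 7 (37.4%), while the YY1 core AAGATGGC (2.75%) and the ERR motif TCAAGGTCA (0.423%) matched none. Matches did not overlap one another in the printed windows. The GC content was 64.7% for Mfn2, 53.3% for Opa1, 53.0% for Chchd6, 55.3% for Phb and 63.7% for Phb2, against a median of 52.7% over all windows. A match describes letters only, and these libraries hold no measurement of factor binding.

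All 10 genes were expressed in every library, at levels that spanned a wide range per length of annotated exon. Levels are given as CPM, read counts scaled to a common library size by edgeR's TMM method over the 27 libraries, and differences between groups as log2 fold changes. Per kilobase of annotated exon, parental cells held Phb at 70.1, Phb2 at 46.0, Yme1l1 at 39.4 and Chchd3 at 27.4 CPM, followed by Opa1 at 19.1 and Immt at 18.4. The mitofusins were close to each other at 12.4 for Mfn1 and 11.6 for Mfn2, and Oma1 (3.17) and Chchd6 (2.84) were the least abundant. The exon length joins all annotated transcripts of a gene, 11353 bases for Immt and 2905 for Chchd3, so this order depends on the annotation. Without division by length, parental Immt (209 CPM) stood above Chchd3 (79.7 CPM). The group means of 1 gene differed little across the 9 groups: the highest over the lowest was 1.95 for Chchd6, 1.67 for Oma1, 1.40 for Mfn1 and 1.39 for Mfn2, and from 1.16 (Chchd3) to 1.30 (Immt) for the other 6. Counts for Chchd6 and Oma1 are the smallest here, which widens their errors.

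**Figure D1:**
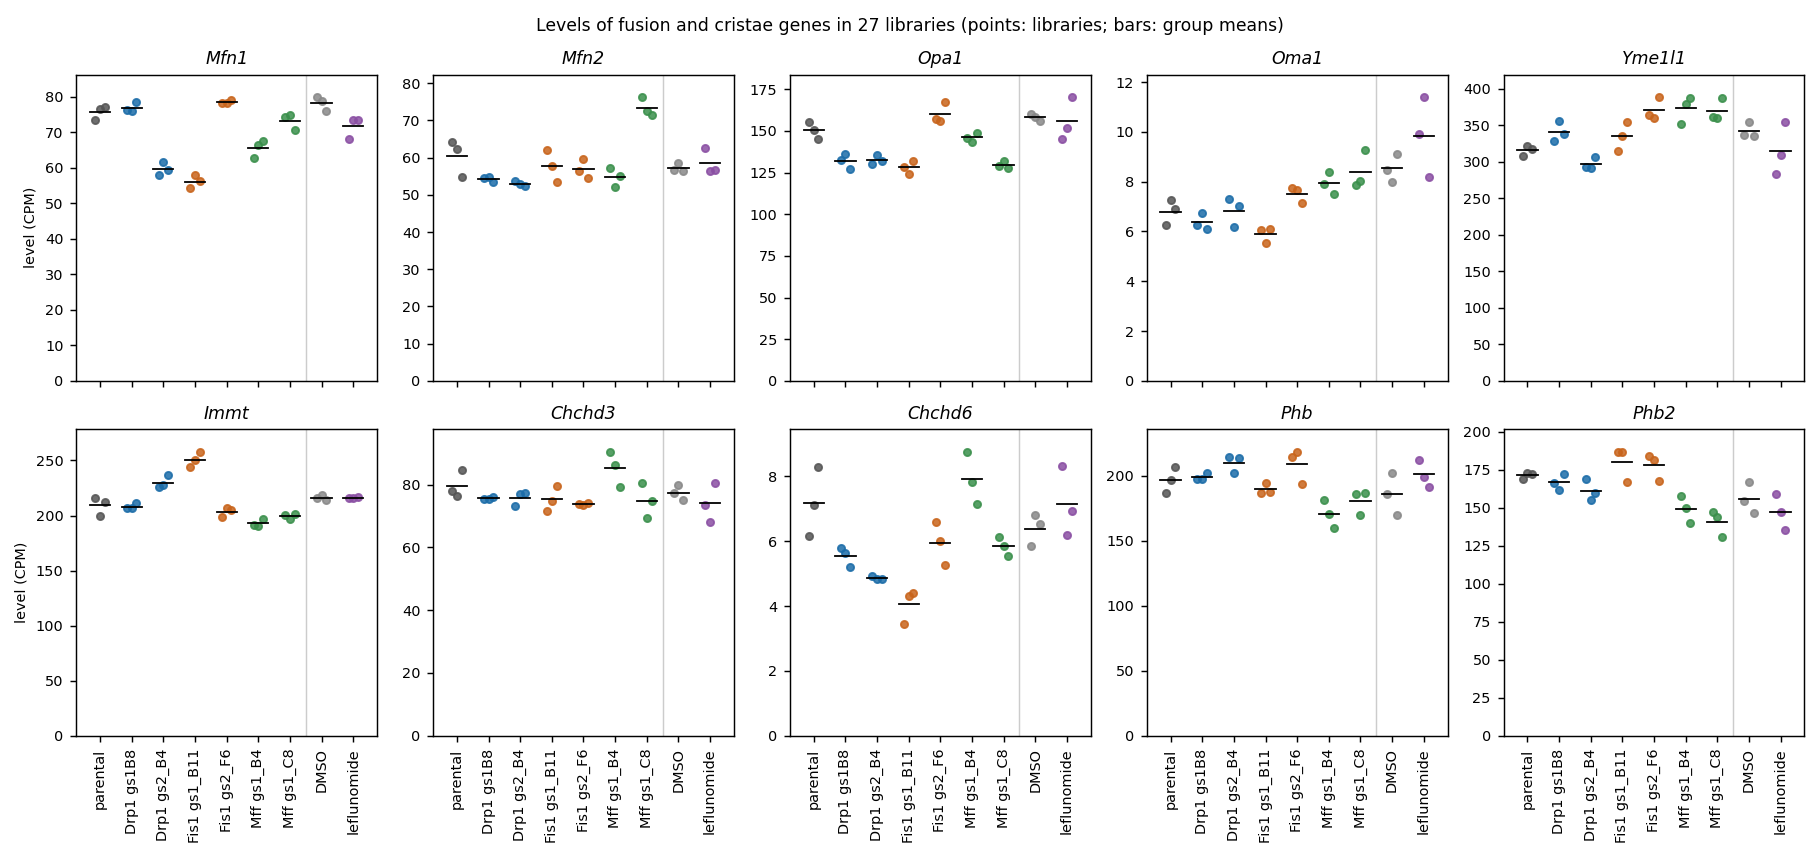
Level of each gene (vertical axis, CPM from 0) in the 9 groups (horizontal axis); points are libraries and bars are means of 3, with the drug experiment right of the grey line. The Mfn1 points of gs2_B4, gs1_B11 and gs1_B4 lie below the parental points, the gs1_C8 points of Mfn2 lie above all other groups, and the Chchd6 points are lowest in gs1_B11.

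Library totals were 20715428 to 31295937 counts in the knockout experiment and 18492020 to 24658747 in the drug experiment. A gene for the 45S ribosomal RNA precursor took 23.2% of the counts in DMSO replicate 3 and 1.60 to 5.72% in the other 26 libraries, so the drug comparison was also made without that library. The edited transcripts fell but did not vanish: the log2 fold changes in a gene's own 2 clones were -1.68 and -2.42 for Dnm1l, -1.17 and -1.47 for Fis1, and -0.88 and -1.01 for Mff. Of the epithelial markers Epcam, Krt8, Krt18, Krt7 and Cdh1, 5 of 5 stood above 1 CPM in every library, with sums of 2310 to 3437 CPM in the knockout experiment. Against 2786 to 2813 CPM in parental cells, the epithelial sum did not overlap in gs1B8 (2310 to 2486), gs2_B4 (2846 to 3212), gs1_B11 (3140 to 3437) and gs2_F6 (2827 to 3186), and did in the Mff clones. Single markers did not all follow the sum. In gs2_B4 Cdh1 changed by -0.78 on the log2 scale. Epcam, Krt8, Krt18 and Krt7 rose there by 0.34, 0.21, 0.29 and 0.15. The summed leukocyte markers reached at most 0.21 CPM, with Cd3e and Adgre1 at 0 in all libraries, the endothelial ones 0.46, the erythroid ones 0.09 and the fibroblast ones 2.24 to 8.08 CPM with Lum at 0. The fibroblast sum was 4.22 to 4.35 CPM in parental cells, higher in gs1_B4 (4.99 to 6.84) and gs1_C8 (6.43 to 8.08), and lower in gs1B8 (3.72 to 4.11) and gs2_F6 (2.24 to 3.11). This sum was mostly Pdgfra, at 4.03, 4.14 and 3.99 CPM in parental cells and 7.48, 7.97 and 6.34 CPM in gs1_C8. Col1a1 reached at most 0.55 CPM. The part of these marker shifts in the values that follow was not tested. In such bulk RNA a smaller number of expressing cells and less RNA per cell cannot be told apart.

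Against parental cells, 26 of 60 gene-by-clone values passed edgeR's quasi-likelihood test (Benjamini-Hochberg adjusted p below 0.05 over 13940 tested genes), 7 higher and 19 lower. Of these 26, 24 were smaller than 0.5 on the log2 scale, and their sizes ran from 0.12 to 0.82. In the Drp1 clone gs1B8 the test called 3 of the 10 genes, where 29.5% of all tested genes passed; none was higher (12.1% of all genes were) and 3 were lower (17.4%). In gs2_B4 it called 5 (50.3% of all genes), 1 higher (24.1%) and 4 lower (26.3%). In the Fis1 clone gs1_B11 it called 4 (47.3%), 1 higher (21.4%) and 3 lower (25.9%), and in gs2_F6 it called 1 (31.3%), which was higher (13.1%; 18.2% of all genes were lower). For the Mff clone gs1_B4 the count was 6 (47.7%), with 1 higher (20.9%) and 5 lower (26.8%). For gs1_C8 the count was 7 (46.7%), with 3 higher (21.5%) and 4 lower (25.2%). At least 1 clone showed a call for 9 of the 10 genes, Chchd3 being the exception, and for 83.6% of all genes. The share of the 10 genes called was more than 1 gene above that of all genes in both Mff clones and more than 1 gene below it in gs2_F6. In gs1_B11 and both Drp1 clones it was within 1 gene of that share. With only the groups compared in the fit, both Mff clones were also within 1 gene of the share of all genes. In gs1_B4 the Mfn2 and Immt calls were lost there, and 5410 of 13004 genes passed. In gs1_C8 the Chchd6 and Phb calls were lost, and 5991 of 12945 genes passed. Summed over the clones, 31.7% of the 60 values were lower, against 23.3% of all values, and 11.7% were higher, against 18.8%. These shares were not tested, and 1 gene is 10 percentage points of a clone's share. The median size of change was 0.09 to 0.22 for the 10 genes and 0.17 to 0.27 for all tested genes over the 6 clones. All 6 comparisons share the 3 parental libraries, and a low or high parental library moves them together.

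**Figure D2:**
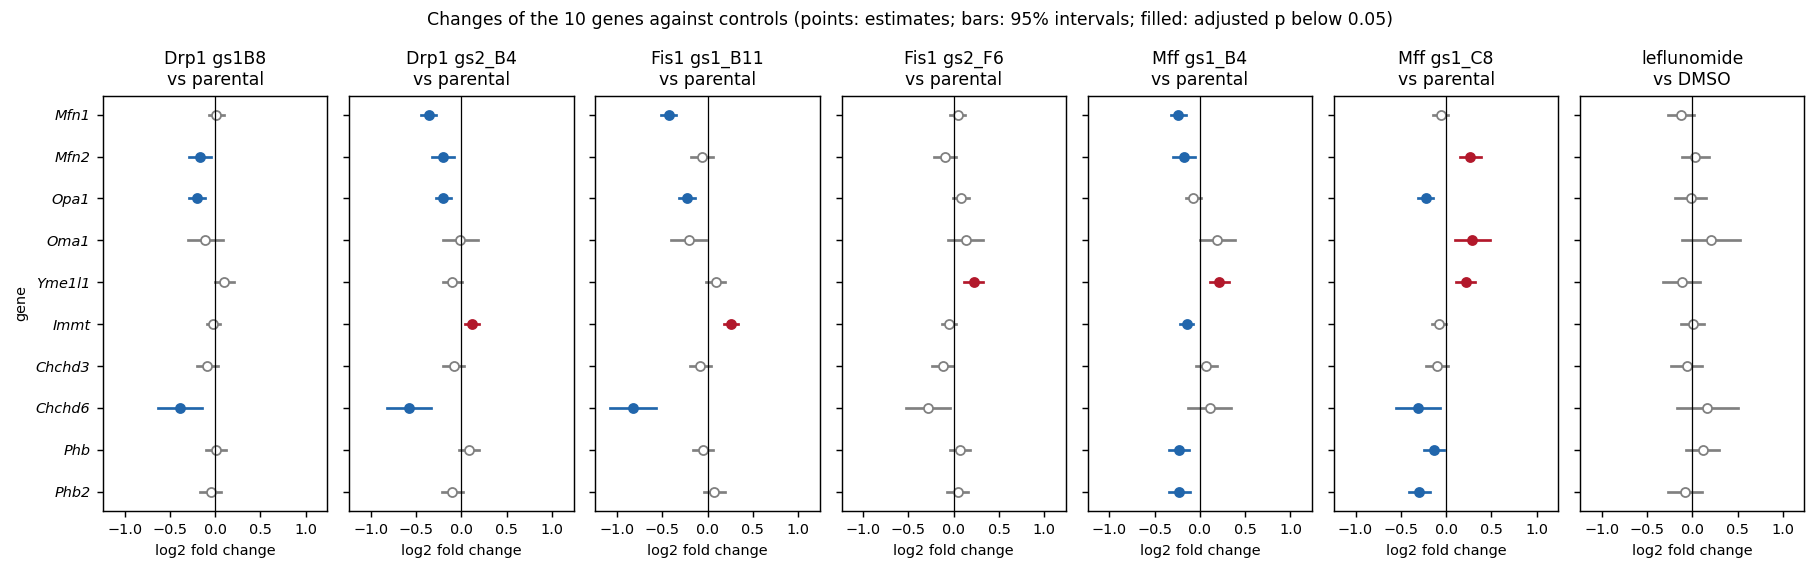
Log2 fold change (horizontal axis) of each gene (vertical axis) in each clone against parental cells and in leflunomide against DMSO; points are edgeR estimates, bars 95% intervals, and filled points have an adjusted p below 0.05. Blue points (lower) outnumber red ones (higher) by 19 to 7 in the clones, and no point is filled for leflunomide.

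Mfn1 fell in 1 clone of each genotype and in no pair. Its level was 73.5, 76.5 and 77.0 CPM in the parental libraries. The Drp1 clone gs2_B4 stood at 58.0, 61.5 and 59.4 CPM, a log2 fold change of -0.36 ± 0.04 (SE; edgeR adjusted p = 3.43e-07), while the other Drp1 clone gs1B8 stood at 76.2, 75.9 and 78.4 CPM. The libraries of gs2_B4 were all below the parental ones, and those of gs1B8 overlapped them. Here and below, such positions describe the same libraries that the test used. The share of all tested genes whose libraries did not overlap was not computed for any comparison. In the Fis1 clone gs1_B11 the level was 54.2, 58.0 and 56.1 CPM (-0.43 ± 0.04; adjusted p = 5.2e-08), and in its partner gs2_F6 it was 78.3, 78.3 and 79.2 CPM. The Mff clone gs1_B4 held 62.7, 66.3 and 67.5 CPM (-0.24 ± 0.04; adjusted p = 6.65e-05), and gs1_C8 held 74.2, 74.7 and 70.7 CPM. In the order of the 9 group means gs1_B4, gs2_B4 and gs1_B11 were the lowest, each apart from its neighbour by more than the larger SD, whereas gs2_F6, DMSO, gs1B8 and parental cells followed one another within it.

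Mfn2, the other mitofusin, which also sits at contacts with the endoplasmic reticulum, moved in the opposite sense in the 2 Mff clones. Parental libraries held 64.1, 62.4 and 54.9 CPM, the widest relative spread of Mfn2 in the 9 groups. The Mff clone gs1_C8 held 76.2, 72.7 and 71.5 CPM, all above the parental range, for a log2 fold change of 0.27 ± 0.06 (edgeR adjusted p = 0.000648). Its partner gs1_B4 held 57.2, 52.1 and 55.0 CPM, partly within the parental range (-0.17 ± 0.06; adjusted p = 0.0189). In the Drp1 clones, gs2_B4 at 53.7, 52.8 and 52.5 CPM fell by 0.20 ± 0.06 (adjusted p = 0.00607) and gs1B8 at 54.5, 54.8 and 53.3 CPM by 0.17 ± 0.06 (adjusted p = 0.0338). All 6 of these Drp1 libraries lay below the lowest parental one, though by less than 3 CPM. The call in gs1B8 did not hold without parental replicate 1 (adjusted p = 0.216), parental replicate 2 (0.162) or gs1B8 replicate 1, 2 or 3 (0.0699, 0.0648 and 0.0968). The call in gs1_B4 did not hold without parental replicate 1 (0.214), parental replicate 2 (0.156) or gs1_B4 replicate 2 (0.0936). Mfn2 missed the threshold in both Fis1 clones, at -0.06 and -0.10, although without parental replicate 3 the change in gs2_F6 was -0.16 with an adjusted p of 0.0356.

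Within a library, the ratio of Mfn1 to Mfn2 per kilobase set the mitofusins against each other without any scaling between libraries. It was 1.07 ± 0.11 (SD, n = 3) in parental cells. The lowest means were 0.829 ± 0.077 in gs1_B11, where Mfn1 was low, and 0.847 ± 0.024 in gs1_C8, where Mfn2 was high. Libraries of both clones lay below the parental range of 0.974 to 1.19. The ratio was 1.20 ± 0.04 in gs1B8 and 1.17 ± 0.06 in gs2_F6, within the parental spread or partly above it, and 0.955 ± 0.037 in gs2_B4 and 1.02 ± 0.08 in gs1_B4. Exact permutation of 3 against 3 libraries cannot go below p = 0.10, so no test is given for the ratios.

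**Figure D3:**
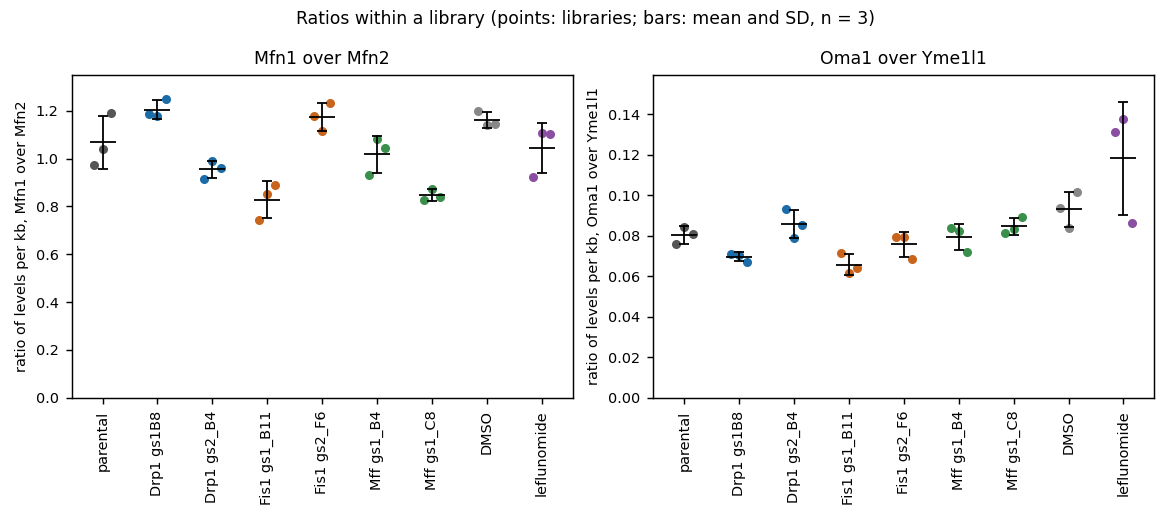
Ratio of Mfn1 to Mfn2 and of Oma1 to Yme1l1 (vertical axes, ratio of levels per kilobase, from 0) in the 9 groups (horizontal axis); points are libraries, bars are mean and SD of 3. The Mfn1 to Mfn2 ratio is lowest in gs1_B11 and gs1_C8, and the Oma1 to Yme1l1 ratio has its widest spread in leflunomide.

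Opa1 was lower in 4 of 6 clones by similar amounts. The parental libraries held 155, 151 and 145 CPM. The Drp1 clones held 133, 136 and 127 CPM (gs1B8) and 130, 136 and 132 CPM (gs2_B4), log2 fold changes of -0.20 ± 0.04 in each with edgeR adjusted p of 0.000792 and 0.000397. The Fis1 clone gs1_B11 held 129, 124 and 132 CPM (-0.23 ± 0.04; adjusted p = 0.000112) and the Mff clone gs1_C8 held 129, 132 and 128 CPM (-0.23 ± 0.04; adjusted p = 0.000121). None of these 12 libraries reached the lowest parental value. Their 4 group means followed one another within the larger SD and stood apart from the other groups, of which gs1_B4 (0.07 lower on the log2 scale, adjusted p = 0.16) and gs2_F6 (0.08 higher, adjusted p = 0.14) did not pass the test. The Opa1 calls held under all 14 alternative settings run for each clone.

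The Opa1-cutting proteases were higher where they passed the test. Yme1l1, the constitutive protease, stood at 308, 321 and 317 CPM in parental libraries. Both Mff clones were higher, gs1_B4 at 352, 380 and 388 CPM (0.21 ± 0.05; edgeR adjusted p = 0.00151) and gs1_C8 at 362, 360 and 388 CPM (0.22 ± 0.05; adjusted p = 0.00136). The Fis1 clone gs2_F6 was similar at 364, 360 and 388 CPM (0.22 ± 0.05; adjusted p = 0.00199). All 9 of these libraries lay above the parental ones, and the 3 means followed one another within the larger SD. The other Fis1 clone, gs1_B11, spread from 315 to 354 CPM and passed only without its replicate 1, at 0.15 (adjusted p = 0.0258). Neither Drp1 clone passed. All gs2_B4 libraries, at 293, 291 and 307 CPM, lay below the parental ones (-0.10 ± 0.05). All gs1B8 libraries, at 329, 356 and 339 CPM, lay above them (0.10 ± 0.05). With serial-number runs as a block in edgeR, gs2_B4 passed as lower (adjusted p = 0.0300) and gs1B8 as higher (0.0490).

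Oma1, the stress-activated protease, passed the test in 1 clone. Its parental level was 6.25, 7.26 and 6.89 CPM, and the Mff clone gs1_C8 held 7.88, 8.04 and 9.29 CPM, all above that range (0.29 ± 0.09; edgeR adjusted p = 0.0131). This call did not hold without parental replicate 1 (adjusted p = 0.0509) or gs1_C8 replicate 3 (0.0600). The other Mff clone, gs1_B4, also lay above the parental range at 7.92, 8.39 and 7.50 CPM, and its change of 0.19 had an adjusted p of 0.091, or 0.0439 without parental replicate 2. The clone gs1_C8 was the only one in which both proteases passed, and there the ratio of Oma1 to Yme1l1 per kilobase, 0.0848 ± 0.0041 (SD, n = 3), was within the spread of the parental 0.0804 ± 0.0043. The ratio lay below the parental range of 0.0758 to 0.0844 in gs1B8 (0.0673 to 0.0712) and gs1_B11 (0.0617 to 0.0717).

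The MICOS genes did not move as a block. Immt, the core subunit that shapes cristae junctions, stood at 216, 200 and 213 CPM in parental libraries. It was highest in the Fis1 clone gs1_B11, at 244, 250 and 258 CPM (0.26 ± 0.04; edgeR adjusted p = 5.76e-06), and next in the Drp1 clone gs2_B4, at 226, 228 and 236 CPM (0.12 ± 0.04; adjusted p = 0.00858). It was lowest in the Mff clone gs1_B4, at 192, 190 and 197 CPM (-0.15 ± 0.04; adjusted p = 0.00208). The 3 clones lay wholly outside the parental range, on both sides of it. The call in gs2_B4 did not hold without parental replicate 2 (adjusted p = 0.0700) and that in gs1_B4 did not hold without parental replicate 1 (0.0564). An exon of Immt overlaps the gene Gm44771 on the opposite strand, and without a stated strand setting the reads of both cannot be told apart.

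Chchd3, the subunit that binds Immt, passed the test in none of the 6 clones. Its 27 libraries ran from 68.0 to 90.4 CPM, and the log2 fold changes against parental cells lay between -0.12 and 0.07. Neighbouring group means followed one another within the larger SD over all 9 groups, although the libraries of gs1B8 and gs2_F6 all lay below the parental ones.

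Chchd6 fell furthest of the 10 genes. Parental libraries held 6.16, 7.10 and 8.29 CPM, and the Fis1 clone gs1_B11 held 3.46, 4.31 and 4.39 CPM, a log2 fold change of -0.82 ± 0.12 (edgeR adjusted p = 1.35e-05). The Drp1 clone gs2_B4 held 4.91, 4.84 and 4.83 CPM (-0.58 ± 0.12; adjusted p = 0.00039) and gs1B8 held 5.78, 5.64 and 5.21 CPM (-0.39 ± 0.12; adjusted p = 0.0171). None of these 9 libraries reached the parental range. The Mff clone gs1_C8 held 6.12, 5.85 and 5.54 CPM, just below that range (-0.31 ± 0.12; adjusted p = 0.0354), while gs1_B4 held 8.75, 7.84 and 7.13 CPM, in and above the parental range. The call in gs1B8 did not hold without parental replicate 3 (adjusted p = 0.114) or gs1B8 replicate 3 (0.0680). In gs1_C8 it did not hold without parental replicate 2 or 3 (0.0838 and 0.209) or gs1_C8 replicate 1, 2 or 3 (0.0580, 0.0728 and 0.131). The Fis1 clone gs2_F6 (6.59, 5.99 and 5.25 CPM; -0.28, adjusted p = 0.071) passed without parental replicate 1 (-0.37, adjusted p = 0.0308) or without its own replicate 1 (-0.36, 0.0488).

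Across the 21 knockout libraries the log2 levels of Chchd6 and Immt, subunits of 1 complex, had a Pearson's r of -0.80. This was the most negative value of all pairs among the 10 genes. Against parental cells their estimates had opposite signs in gs2_B4, gs1_B11 and gs1_B4. In gs1B8, gs2_F6 and gs1_C8 both were negative, though Immt did not pass the test there. The largest positive correlation among the 10 genes was that of Phb with Phb2 (r = 0.63), followed by Chchd3 with Chchd6 (r = 0.61). These values describe 7 groups of 3 libraries that share clone and depth, not 21 independent cultures.

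Phb and Phb2, whose proteins depend on each other for stability in the ring, were lower in both Mff clones. Phb stood at 186, 197 and 207 CPM in parental libraries and at 181, 171 and 160 CPM in gs1_B4 (-0.24 ± 0.05; edgeR adjusted p = 0.000948). In gs1_C8 it stood at 186, 170 and 187 CPM (-0.13 ± 0.05; adjusted p = 0.0441), and this range overlapped the parental one. Phb2 stood at 169, 173 and 172 CPM in parental libraries. It fell to 157, 150 and 140 CPM in gs1_B4 (-0.23 ± 0.06; adjusted p = 0.00201) and to 147, 144 and 131 CPM in gs1_C8 (-0.29 ± 0.06; adjusted p = 0.000188). All 6 Mff libraries lay below the parental ones for Phb2. The Phb call in gs1_C8 is fragile: it did not hold without parental replicate 2 or 3 (adjusted p = 0.147 and 0.181), without gs1_C8 replicate 1, 2 or 3 (0.0811, 0.223 and 0.0742), or with DESeq2 (0.0838). In the Drp1 and Fis1 clones neither gene passed the test. Phb had counts that were not whole numbers in 26 of 27 libraries and Phb2 in 21, which is how RSEM divides reads that match more than 1 place, and Phb2 exons overlap a small nucleolar RNA gene on the same strand and an antisense gene, so their levels may hold reads of other loci.

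Counted by genotype, both Drp1 clones were lower for Mfn2, Opa1 and Chchd6, against 12.1% of all tested genes that were lower in both, and higher for none (7.94%). Of these calls, that of Mfn2 in gs1B8 was lost under 10 of 14 alternative settings and that of Chchd6 in gs1B8 under 3. The Fis1 clones shared no call (9.02% of all genes were lower in both and 5.94% higher). Both Mff clones were higher for Yme1l1 (7.37% of all genes) and lower for Phb and Phb2 (11.3%), with Mfn2 called in opposite directions. The Phb call in gs1_C8 was lost under 12 of 14 alternative settings and the Mfn2 call in gs1_B4 under 6. No member was called in the same direction in all 6 clones, where 2.1% of genes were lower and 0.538% higher. Mfn2 and Immt were called both higher in at least 1 clone and lower in at least 1 other, as were 29.2% of all genes.

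Between the 2 clones of 1 genotype, a comparison that uses no parental library, 14 of 30 gene-by-pair values passed the test. For Drp1, 3 of 10 genes differed (41% of all tested genes), with 1 higher in gs2_B4 than in gs1B8 (20.1% of all genes) and 2 lower (20.9%). For Fis1, 6 differed (47.6%), with 5 higher in gs2_F6 than in gs1_B11 (22.9%) and 1 lower (24.7%). For Mff, 5 differed (54.7%), with 2 higher in gs1_C8 than in gs1_B4 (28.3%) and 3 lower (26.4%). Mfn1 was the only one of the 10 genes to differ in all 3 pairs: gs2_B4 was lower than gs1B8 by 0.37 ± 0.04, gs2_F6 higher than gs1_B11 by 0.47 ± 0.04, and gs1_C8 higher than gs1_B4 by 0.18 ± 0.04 (edgeR adjusted p = 4.38e-07, 1.03e-08 and 0.000878). In the Fis1 pair, gs2_F6 was also higher for Chchd6 by 0.54 ± 0.12, for Oma1 by 0.34 ± 0.09 and for Opa1 by 0.31 ± 0.04, and lower for Immt by 0.32 ± 0.04. In the Mff pair, Mfn2 differed by 0.44 ± 0.06 in favour of gs1_C8 (adjusted p = 1.64e-06). For Mfn1, and also for Immt and Chchd6, the libraries of 1 clone lay wholly above or below those of the other in each pair. The share of all tested genes that differed, or did not overlap, in all 3 pairs was not computed.

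**Figure D4:**
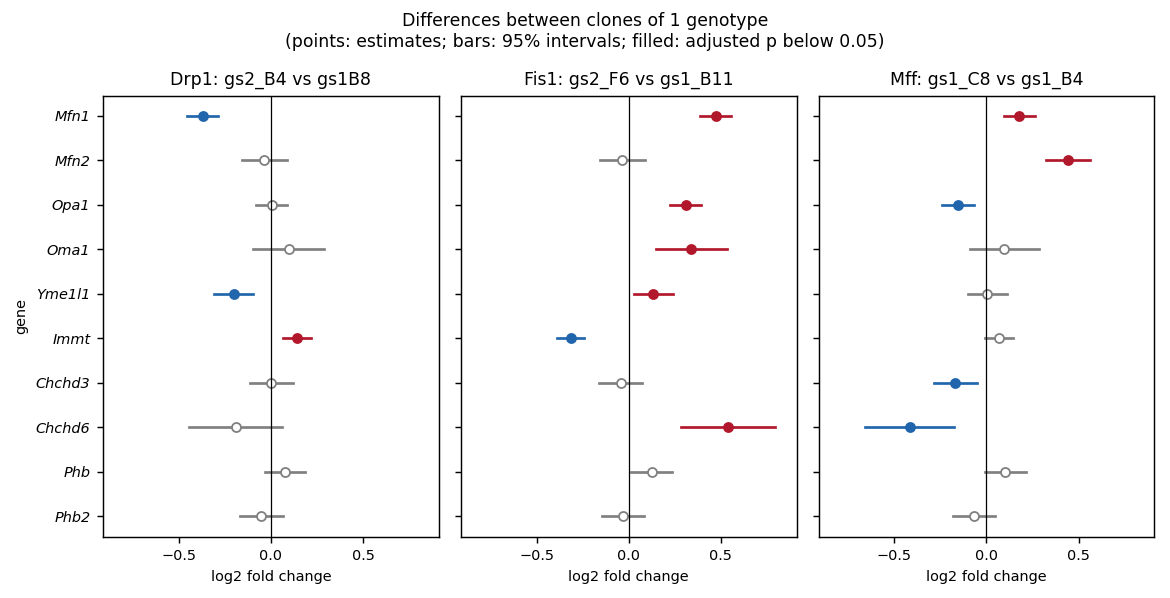
Log2 fold change (horizontal axis) of each gene (vertical axis) between the 2 clones of Drp1, Fis1 and Mff knockout cells; points are edgeR estimates, bars 95% intervals, and filled points have an adjusted p below 0.05. Mfn1 is filled in all 3 panels, and 6 genes are filled for the Fis1 pair.

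With the clone as the replicate, counts of the 3 libraries of a clone were summed and 2 sums per genotype were compared. None of the 10 genes differed between genotypes in edgeR's quasi-likelihood test or with DESeq2, where 0% (Fis1 against Drp1) and 0.00645% (Mff against Drp1, and Mff against Fis1) of 15513 tested genes passed in edgeR. At an unadjusted p below 0.05 the counts were 0, 0 and 1, the 1 being Phb2, lower in Mff than in Fis1 clones by 0.31 ± 0.10 on the log2 scale (adjusted p = 0.56). Over all 15513 tested genes those counts were 318, 952 and 1293. With 2 clones each, the 95% intervals of the 10 genes reached from -0.57 to 1.19 for Mff against Fis1, so changes of the size seen between clones could not be told from 0.

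Leflunomide left all 10 genes without a call, against 2.79% of 12603 tested genes that passed, 1.84% higher and 0.944% lower. The count was also 0 at an unadjusted p below 0.05, which 2634 of the 12603 genes had. With DESeq2 it was 0 too, where 740 of 12724 genes passed. The background of 351 genes depended on single libraries: 13, 26 and 166 genes passed without DMSO replicate 1, 2 or 3, and 120, 10 and 1583 without leflunomide replicate 1, 2 or 3. In each of these 6 settings the count among the 10 genes was 0. Mfn1 was 68.0, 73.4 and 73.4 CPM with leflunomide and 79.8, 78.9 and 75.9 CPM with DMSO. The 2 ranges did not overlap, and the log2 difference was -0.13 ± 0.06 with a 95% interval from -0.27 to 0.02 (edgeR adjusted p = 0.288). Oma1 had the largest estimate, 0.21 ± 0.14 (95% interval -0.11 to 0.53), with 9.92, 11.4 and 8.19 CPM against 8.47, 7.99 and 9.12 CPM in overlapping ranges. Immt differed least, at 216, 216 and 217 CPM against 216, 218 and 214 CPM. Over the 10 genes the 95% intervals reached from -0.33 to 0.53. Without DMSO replicate 3, the library rich in ribosomal precursor, none passed either, and Mfn1 was at -0.15 (adjusted p = 0.449). Epithelial marker sums were 1743 to 1977 CPM with leflunomide and 2348 to 2428 CPM with DMSO, and their part in these values was not tested. Krt8, Krt18, Krt7 and Cdh1 were each lower with leflunomide without overlap. Epcam overlapped, at 161, 158 and 135 CPM with leflunomide and 159, 149 and 150 CPM with DMSO.

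Partner genes of the same machinery were taken from 5 lists, and 42 of their 43 genes passed the filter on low counts (Pld6 did not). Over the 6 clones, MICOS, SAM and MIB partners were called 8 times higher and 19 times lower in 60 values, outer membrane fusion regulators 6 and 17 times in 54, inner membrane proteases and partners 11 and 19 times in 72, cardiolipin genes 12 and 13 times in 42, and ATP synthase dimer subunits 0 and 4 times in 24. Over all tested genes 18.8% of values were higher and 23.3% lower. The lower share was 31.7% for the MICOS partners, the same as for the 10 fusion and cristae genes, and no test of these shares was made. With leflunomide, 1 of the 42 passed: Parl, a rhomboid protease of the inner membrane, rose by 0.32 ± 0.07 (edgeR adjusted p = 0.0448).

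Chchd10, a MICOS-associated gene of the intermembrane space, was nearly absent from both Drp1 and both Fis1 clones. The 3 parental libraries held 93 counts in all, and the Mff clones 65 (gs1_B4) and 86 (gs1_C8). In gs1B8 there was 1 count, 103-fold lower (95% counting interval 18 to 4103), in gs2_B4 there were 7, of which 6 in 1 library (15.2-fold lower, 7.07 to 38.7) and in gs2_F6 2 (53.5-fold lower, 14.4 to 448). In gs1_B11 there was none, which puts it at least 33.0-fold lower than parental cells when the group is given the floor of 3 counts. Intervals and floor cover counting error only. Apoo and Apool, both MICOS subunits (Mic26 and Mic27), were lower in both Drp1 clones, Apoo by 0.27 and 0.50 and Apool by 0.39 and 0.36.

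Among the fusion regulators Marchf5, an outer membrane ubiquitin ligase that acts on mitofusins, fell in both Drp1 clones (by 0.27 in gs1B8 and 0.81 in gs2_B4) and in both Mff clones (by 0.50 in gs1_B4 and 0.12 in gs1_C8). Hdac6, a cytosolic deacetylase, fell by 0.72 and 0.39 in the Mff clones, and Slc25a46, an outer membrane carrier-like protein, rose by 0.31 and 0.12 in the Fis1 clones. Among the proteases Afg3l1 and Spg7, subunits of m-AAA complexes, fell in both Drp1 clones (Afg3l1 by 0.29 and 0.51, Spg7 by 0.44 and 0.41) and in both Mff clones (by 0.30 and 0.23, and by 0.22 and 0.14). Afg3l2, their partner subunit, rose by 0.30 and 0.40 in the Fis1 clones and fell by 0.34 and 0.10 in the Mff clones. Dele1, which relays mitochondrial stress after Oma1 cuts it, rose by 0.70 in gs1_B11 and 0.35 in gs2_F6. Of the cardiolipin genes, Ptpmt1 and Crls1 fell in both Drp1 clones (by 0.24 and 0.30, and by 0.19 and 0.29) and the remodelling acyltransferase Lclat1 rose by 0.24 and 0.55. Atp5md, which holds ATP synthase dimers together, fell by 0.24 and 0.54 in the Mff clones.

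**Figure D5:**
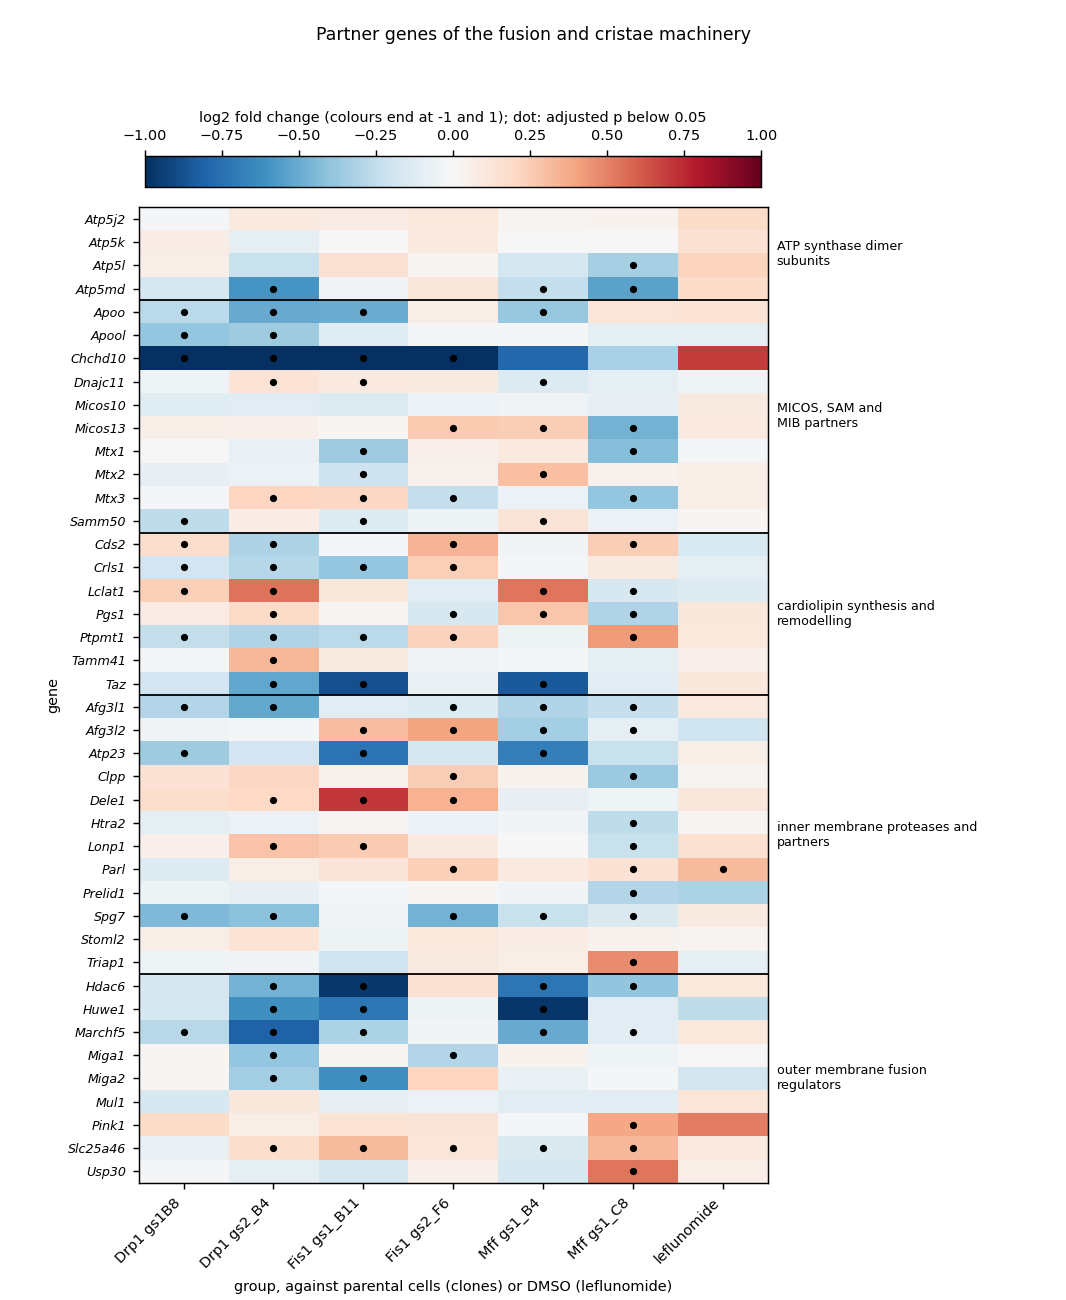
Log2 fold change (colour, from -1 in blue to 1 in red) of 42 partner genes (rows, grouped by list) in each clone against parental cells and in leflunomide against DMSO (columns); dots mark an adjusted p below 0.05 and values past the colour range are drawn at its end. Chchd10 is darkest in the Drp1 and Fis1 clones, and Taz, Hdac6 and Huwe1 are darkest in gs2_B4, gs1_B11 and gs1_B4.

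Position in the genome moved with some of these values. Apoo, Apool, Huwe1, Hdac6 and Taz lie on chromosome X, where the median log2 fold change over 421 tested genes was -0.50 in gs2_B4, -0.73 in gs1_B11 and -0.72 in gs1_B4. It was -0.23 in gs1B8, -0.09 in gs1_C8 and 0.04 in gs2_F6, against a median over all tested genes of -0.02 to 0.00 in every clone. Hdac6 changed by -0.47, -0.96 and -0.72 in the 3 clones with the lowest chromosome X medians, and the cardiolipin acyltransferase gene Taz by -0.52, -0.88 and -0.84. Marchf5 and Atp5md lie on chromosome 19, with medians of -0.58 in gs2_B4, -0.31 in gs1_C8 and -0.21 in gs1_B4, and Afg3l1 and Spg7 lie on chromosome 8, with medians from -0.57 (gs2_B4) to -0.24 (gs1_C8) in the 6 clones. Slc25a46, Afg3l2 and Dele1 lie on chromosome 18, with medians of 0.33 in gs1_B11 and 0.20 in gs2_F6. In these 2 clones 57.9% and 44.2% of its 382 tested genes were higher. Its medians in the Drp1 and Mff clones ran from -0.06 (gs1_B4) to 0.07 (gs2_B4). The part of chromosome-wide shifts in the partner genes' changes was not tested.

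None of the 10 fusion and cristae genes lies on chromosome X, 19, 18 or 8. On build GRCm38, with spans that matched the GENCODE M21 annotation, Mfn1 (ENSMUSG00000027668.13) lies at chr3:32529465-32579239, Mfn2 (ENSMUSG00000029020.13) at chr4:147873599-147904704 and Opa1 (ENSMUSG00000038084.16) at chr16:29579334-29654884. Oma1 (ENSMUSG00000035069.3) lies at chr4:103313812-103371868 and Yme1l1 (ENSMUSG00000026775.9) at chr2:23156369-23199260. Immt (ENSMUSG00000052337.15, chr6:71831331-71877388), Chchd3 (ENSMUSG00000053768.13, chr6:32790976-33060260), Chchd6 (ENSMUSG00000030086.16, chr6:89383146-89595652) and Phb2 (ENSMUSG00000004264.17, chr6:124712336-124716950) share chromosome 6, and Phb (ENSMUSG00000038845.11) lies at chr11:95666957-95680773. Values are of whole genes, exons of all transcripts together.

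Beside Mfn1, the chromosome median moved in the same direction in 2 of the 3 clones in which Mfn1 fell. The 705 tested genes of chromosome 3 had a median of -0.16 in gs2_B4 and -0.24 in gs1_B11, where Mfn1 changed by -0.36 and -0.43, but -0.01 in gs1_B4, where Mfn1 changed by -0.24. In gs1_C8 the median was -0.30 and Mfn1 changed by -0.06. The 43 tested genes within 5 Mb of Mfn1 gave -0.15, -0.21, 0.00 and -0.31 in these 4 clones. The 81 tested genes within 5 Mb of Chchd6 had medians of -0.07 to -0.02 in the 6 clones, against changes of Chchd6 from -0.82 to 0.11. The 50 neighbours of Opa1 had medians of 0.04 (gs1B8), 0.10 (gs2_B4) and 0.13 (gs1_B11) in 3 clones where Opa1 was lower. In gs1_C8, the fourth, their median was -0.16 and Opa1 changed by -0.23. For Yme1l1, the 101 neighbours had medians of 0.02 to 0.13 in the 3 clones where it was higher. They had medians of -0.11 in gs1B8, -0.29 in gs2_B4 and -0.33 in gs1_B11, where Yme1l1 changed by 0.10, -0.10 and 0.09. The chromosome 2 medians were 0.13 in gs2_F6, 0.10 in gs1_B4 and 0.08 in gs1_C8. In gs1B8, gs2_B4 and gs1_B11 they were -0.05, -0.19 and -0.23. The part of this chromosome shift in the Yme1l1 values was not tested. For Phb and Phb2 the neighbours had medians of -0.08 to -0.04 in the Mff clones.

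Over the 21 knockout libraries, the genes whose log2 levels ran most like each of the 10 are given as a description, among 13939 genes compared. Mfn1 ran closest to Sh3kbp1 (Pearson's r = 0.96), Mfn2 to Scfd2 (0.94) and Opa1 to the non-coding C920009B18Rik (0.92). Oma1 ran closest to Mocs2 (0.88), a gene of molybdenum cofactor synthesis, and Yme1l1 to Snap23 (0.91). For the MICOS genes they were Herc4 for Immt (0.95), Itgb1bp1 for Chchd3 (0.84) and Pttg1, which encodes securin, for Chchd6 (0.94). Phb ran closest to Fbl (0.94), the nucleolar methyltransferase fibrillarin, and to Nhp2 (0.93), another nucleolar protein, and Phb2 to the snoRNA host gene Snhg4 (0.92). The libraries form 7 groups of 3, so few independent points stand behind these values.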

How the data were processed

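Poly(A) RNA of 27 mouse 4T1 libraries was sequenced, and the authors deposited 1 table of RSEM expected counts per gene with the reads trimmed by Trimmomatic 0.35 and build GRCm38 (mm10), per the submitters' processing notes; the aligner was not given in the sources used here. Of all values, 91.5% were whole. The authors' expected counts were rounded to whole numbers here, and totals per library ran from 18492020 to 31295937.

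Groups came from the labels and clones from the column codes. The columns carry no replicate label, so replicates 1 to 3 are named by the order of the serial numbers in the column names. Tests used edgeR 4.0.16 (R 4.3.3): TMM scaling, its default filter on low counts, the quasi-likelihood F test, and p-values adjusted by Benjamini-Hochberg across every tested gene, with a threshold of 0.05. The 21 knockout libraries formed 1 fit, the 6 drug libraries another, and genotypes were compared on counts summed per clone (2 sums each). The SE is the log2 fold change divided by the square root of F. Alternatives were DESeq2 1.42.0, other scalings, no filter, other sets of libraries, leaving out each library, a serial-number block, and leaving out ribosomal RNA genes; the broad version of the last was chosen after seeing the data. Neighbour medians, within 5 Mb, and chromosome medians were also added after seeing the data.

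The 10 genes, the partner lists and the motifs were chosen with earlier results of these data known. Named genes are the 10, the 3 edited genes, up to 4 genes per partner list called alike in both clones of a genotype or with leflunomide, and the most alike genes. Others named by position (Huwe1, Taz) were chosen after their values were seen. Promoter letters are RefSeq's (GRCm38.p6).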

Additional observations from a re-analysis of the deposited data

Results flagged for a closer look

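The changes listed here differed between the 2 clones of 1 genotype by edgeR's test of the difference itself, as log2 fold changes ± SE. Within Drp1 (gs2_B4 against gs1B8), Immt differed by 0.14 ± 0.04 (adjusted p = 0.0036), Mfn1 by -0.37 ± 0.04 (4.38e-07) and Yme1l1 by -0.20 ± 0.05 (0.00292). Yme1l1 passed in neither Drp1 clone against parental cells, with estimates of opposite sign, 0.10 and -0.10.

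Within Fis1 (gs2_F6 against gs1_B11), Chchd6 differed by 0.54 ± 0.12 (edgeR adjusted p = 0.00109), Immt by -0.32 ± 0.04 (4.7e-07), Mfn1 by 0.47 ± 0.04 (1.03e-08), Oma1 by 0.34 ± 0.09 (0.00475) and Opa1 by 0.31 ± 0.04 (2.94e-06). Yme1l1 differed by 0.13 ± 0.05 (0.0357), and this call did not hold without gs1_B11 replicate 1 (adjusted p = 0.197), gs1_B11 replicate 2 (0.0757) or gs2_F6 replicate 3 (0.172). Phb did not pass here but did without gs2_F6 replicate 3, at 0.17 (0.0154).

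Within Mff (gs1_C8 against gs1_B4), Chchd6 differed by -0.42 ± 0.11 (edgeR adjusted p = 0.00427), Mfn1 by 0.18 ± 0.04 (0.000878), Mfn2 by 0.44 ± 0.06 (1.64e-06) and Opa1 by -0.15 ± 0.04 (0.00294). Chchd3 differed by -0.17 ± 0.06 (0.0142), its only call in any comparison, and this call did not hold without gs1_B4 replicate 1 (adjusted p = 0.0827) or gs1_C8 replicate 2 (0.0984). Leaving out either of those libraries brought Phb past the threshold, at 0.15 (0.0351) and 0.14 (0.0401).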

How the results depend on the processing

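Of 1600 single-gene values under the alternatives, 1531 kept their side of the threshold, 55 lost a call, 14 gained one and no called value changed sign. Of the 26 calls against parental cells 18 held under every alternative run, as did 12 of 14 between clones. Without the filter on low counts, the genes called were 1 in gs1B8 and 4 in gs1_C8, and with all 27 libraries in 1 fit leflunomide had 1 call (Mfn1, lower by 0.13 on the log2 scale, adjusted p = 0.0428). In gs1_B4 the Mfn2 and Immt calls were lost without the filter, with only the groups compared and without parental replicate 1. Leaving out 1 library at a time gave 1 to 2 calls in gs1B8 (1 without gs1B8 replicate 3), 1 to 2 in gs2_F6 (2 without parental replicate 1, parental replicate 3 or gs2_F6 replicate 1) and 4 to 6 in gs1_C8 (4 without gs1_C8 replicate 3). Serial numbers may mark runs of libraries. With the run as a replicate block the calls were 4 (gs1B8), 6 (gs2_B4), 4 (gs1_B11), 1 (gs2_F6), 6 (gs1_B4), 8 (gs1_C8) and 0 (leflunomide), and 3, 6 and 5 between the Drp1, Fis1 and Mff clones. Over all genes the block raised the calls in each clone comparison (from 4109 to 4719 in gs1B8) and left 351 for leflunomide. Correlations between libraries of the same run lay between -0.05 and 0.21, over 0.1 in 5 of 30 cases and above those with other runs in 21. The labels do not say that runs pair libraries, and a shared run effect was neither shown nor shown to be absent. Over all genes, DESeq2 called 216 between Mff and Drp1, 372 between Mff and Fis1 and 14 between Fis1 and Drp1 clones, where edgeR called 1, 1 and 0. For leflunomide edgeR called 351, DESeq2 740, edgeR without the filter 957 and with 27 libraries in 1 fit 2532. The cause of these shifts was not tested. Levels of RNA do not give protein or the cut forms of Opa1, and clone and genotype cannot be told apart with 2 clones each.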

Other observations

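The ratio of Phb to Phb2 per kilobase was 1.81 ± 0.06 (SD, n = 3) with leflunomide and 1.58 ± 0.04 with DMSO. The leflunomide libraries ran from 1.77 to 1.88 and the DMSO libraries from 1.53 to 1.61, without overlap, although neither gene passed the test alone. This was 1 of 4 ratios computed, and it was picked after the values were seen. Against 1.52 ± 0.07 in parental cells, the ratio was 1.73 ± 0.04 in the Drp1 clone gs2_B4, 1.71 ± 0.17 in the Mff clone gs1_C8 (1.57 to 1.90, overlapping the parental range) and 1.40 ± 0.08 in the Fis1 clone gs1_B11. The other 3 clones had means of 1.51 to 1.58.

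The ratio of Opa1 to Immt per kilobase, inner membrane fusion against cristae junctions, was lowest in gs1_B11 at 0.738 ± 0.021 and in gs2_B4 at 0.831 ± 0.027, against 1.04 ± 0.05 in parental cells. The other Fis1 clone, gs2_F6, held 1.14 ± 0.05, so the 2 clones of this genotype lay on either side of parental cells.

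The clones gs2_B4, gs1_B11 and gs1_B4, in which Mfn1 fell, were also those with the lowest chromosome X medians (-0.50, -0.73 and -0.72 on the log2 scale), where 66.7, 70.3 and 70.8% of 421 tested genes were lower than in parental cells. In the other 3 clones 12.4 to 45.4% were lower. Mfn1 lies on chromosome 3, and 5 of the 42 partner genes lie on chromosome X, with 16 lower and 0 higher calls in 30 values. This pattern was noticed in these data, and its part in the Mfn1 values was not tested.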
